A study of Mus musculus with 6 samples.

Results

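Zbtb16 and Zbtb38 are a pair of mouse genes for transcription factors of the BTB zinc finger family, and both also gave circular RNAs (circRNAs) in cultured fat precursors that the labels call brown. A circRNA is a closed RNA ring, made when the end of a downstream exon is spliced back to the start of an upstream one. The circRNAs described are the table rows that lie wholly within 2 windows of mm9 chromosome 9, minus strand, 48460000 to 48645000 for Zbtb16 and 96580000 to 96640000 for Zbtb38. They came to 4 circRNAs for Zbtb16 and 2 for Zbtb38, 6 of the 3869 circRNAs in the table. Both hosts were chosen by their CPM over the culture days, a circle of Zbtb16 having stood out as higher and one of Zbtb38 as lower on day 4 than on day 0, so those levels and the differences between days are given as a description, with no test.

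Proteins of this family pair up through an amino-terminal BTB domain and bind DNA through zinc fingers at the other end, mostly as repressors. Zbtb16, also called PLZF, acts in stem and progenitor cells and is known as a gene that glucocorticoids such as dexamethasone induce in several cell types. Zbtb38, also called CIBZ, binds methylated DNA. Circular RNAs lack free ends and are degraded more slowly than linear RNA.

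Cells came from the stromal vascular fraction of fat of 6-week-old C57BL/6 mice, a depot that the labels name inguinal BAT, and were sequenced with 2 libraries at each time. Day 0 was taken while the cells were proliferating, before induction. Day 4 closed the induction with insulin, dexamethasone and 3-isobutyl-methylxanthine in serum-containing medium, and day 8 closed a further 4 days in medium with T3, a thyroid hormone, and insulin, for which no dexamethasone is listed. Every library after day 0 came from cells that had been given dexamethasone, so its effect and that of the other agents and of time cannot be told apart. Whether replicates were separate cultures or animals is not stated, so their spread may be technical.

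Values are CPM, counts scaled to the same total of 1000000 per library, of the back-splice reads on the listed circRNAs, which were enriched by removing ribosomal and linear RNA. Each library's values are whole multiples of 1 step, worth 21.9 to 24.8 CPM and read here as 1 read, and the libraries hold 40384 to 45733 such reads. The lowest value above 0 is 2 reads, so an entry of 0 means fewer than 2 reads. All 3869 rows are above 0 in both replicates of some day, a selection that favours differences between days among rows with few reads. In these bulk samples, fewer cells that make a circRNA and less of it per cell cannot be told apart.

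The host names were checked by exon spacing, since the table gives positions without genes. The distance between the joined ends of each of the 6 circRNAs equals the distance from the start of one exon to the end of the same or a later exon of its host in the GENCODE M21 annotation, which is on another build (GRCm38). No other gene within 3000000 bp on that strand gave the same distance. In transcript Zbtb16-201 the circles run from exon 2 to exon 4, from exon 3 to exon 4, from exon 2 to exon 3, and over exon 2 alone. In Zbtb38-212 they run from exon 3 to exon 5 and from exon 3 to exon 4. The sequences where these exons would meet are shown because they are what sets each circle apart from the linear RNA and from the others. They were read from the annotated transcripts, not from reads, with the last 15 bases of the closing exon in lower case and the first 15 bases of the opening exon in capitals.
Zbtb16 exons 2 to 4: gacagacccatactgTCCCCTCTGCTGGCC
Zbtb16 exons 3 to 4: gacagacccatactgGAAACTGCACAGTGG
Zbtb16 exons 2 to 3: tactggctcattcagTCCCCTCTGCTGGCC
Zbtb16 exon 2: agtggagcagcacagTCCCCTCTGCTGGCC
Zbtb38 exons 3 to 5: ctggcgtgttctgagTTGAACCAAGACTCT
Zbtb38 exons 3 to 4: gagtgatacgcacagTTGAACCAAGACTCT
The capitals repeat in 3 of the 4 Zbtb16 lines and in both Zbtb38 lines, because these circles open at the same exon, exon 2 of Zbtb16 and exon 3 of Zbtb38. The lower-case part repeats in the first 2 lines, which both close at exon 4 of Zbtb16.

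**Figure D1:**
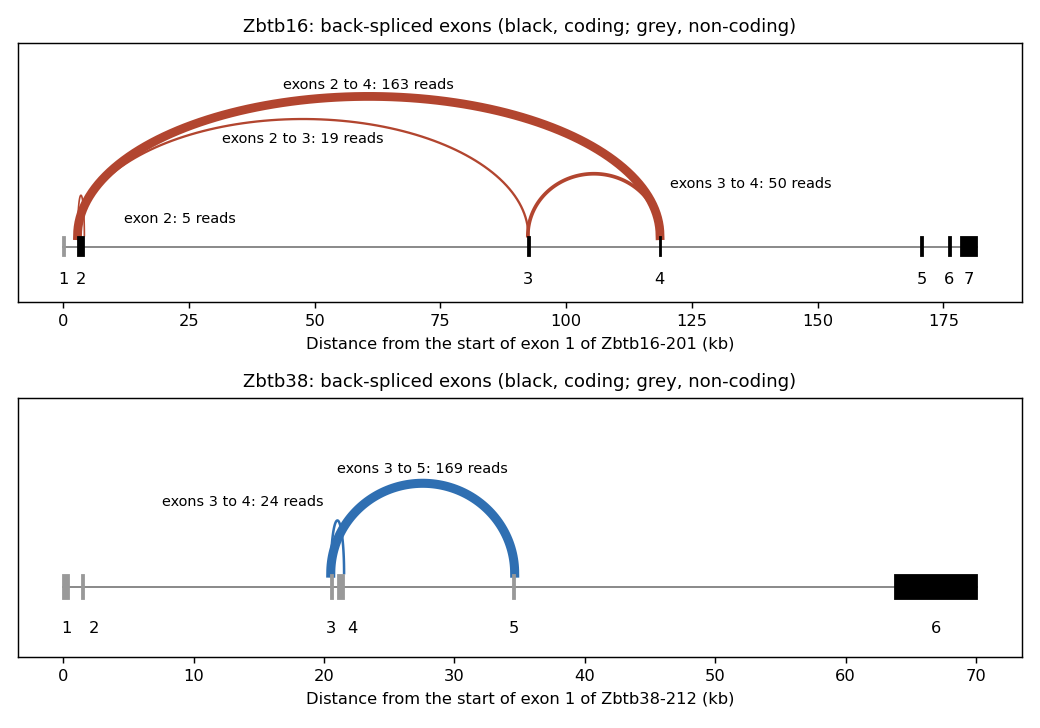
Exon maps of Zbtb16-201 and Zbtb38-212 drawn to scale, with distance from the start of exon 1 in kb on the horizontal axis; black boxes are exons that hold coding sequence, grey boxes are non-coding exons, and each arc joins the outer ends of a circle, with a width that grows with its reads over the 6 libraries. The Zbtb16 arc of 163 reads spans exons 2 to 4 across long introns, and the Zbtb38 arc of 169 reads lies wholly upstream of the coding exon 6.

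The 2 hosts give circles of different make-up. Exon 2 of Zbtb16 is 1357 nt long and holds 1268 nt of coding sequence with the start of the open reading frame. If the exons between the joined ends are all kept, the circle of exons 2 to 4 is 1542 nt long, of which 1453 nt are coding, and that of exons 3 to 4 is 185 nt and coding throughout. The Zbtb38 circle of exons 3 to 5 would be 617 nt and that of exons 3 to 4 would be 517 nt, with no coding sequence in either, since the whole coding sequence of Zbtb38-212 lies in exon 6. Only the joined ends were measured, so which inner exons or introns a circle holds is not known from these data.

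The genomic spans differ as well. The Zbtb16 circle of exons 2 to 4 (48525388 to 48641204) spans 115817 bp, more than 99.0% of the circRNAs in the table, whose median is 7871 bp. That of exons 2 to 3 (48551569 to 48641204) spans 89636 bp, because intron 2 alone is 88181 nt. That of exons 3 to 4 (48525388 to 48551666) spans 26279 bp, and exon 2 alone (48639848 to 48641204) is a single-exon circle. In Zbtb38 the circle of exons 3 to 5 (96618629 to 96632732) spans 14104 bp and that of exons 3 to 4 (96631711 to 96632732) spans 1022 bp. None of the 6 is in the public catalogue circBase, to which 63.1% of the table belong, and 85.2% of the 923 circRNAs that averaged 10 reads or more.

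Zbtb16 circles stood at 0 on day 0 and appeared in the induced cells. The circle of exons 2 to 4, the most abundant one, stood at 0 in each day 0 library, had 787 and 570 CPM on day 4 (36 and 23 reads), and had 1641 and 876 CPM on day 8 (67 and 37 reads). Both day 8 libraries lay above both day 4 libraries, by a margin that was small for the second one. Its mean was 678 ± 154 CPM on day 4 and 1259 ± 541 CPM on day 8 (mean ± SD, n = 2 libraries each), which placed it 272nd and 122nd by mean CPM among the circRNAs of those days. The log2 difference of day 8 minus day 4 was 0.85 (SE 0.43, from the limma fit over the whole table on log2(CPM + 43.7)). It was 0.42 without day 8 replicate 1 and 1.28 without day 8 replicate 2. No fold is given against day 0, where it was listed at 0.

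The circle of exons 3 to 4, which leaves out the exon with the start codon, also began at a listed 0 on day 0. It had 328 and 99.0 CPM on day 4 (15 and 4 reads), and 294 and 450 CPM on day 8 (12 and 19 reads). The day 8 and day 4 libraries overlapped, and the log2 difference of day 8 minus day 4 was 0.87 (SE 0.72). It was 1.59 without day 4 replicate 1 and 0.14 without day 4 replicate 2. The circle of exons 2 to 3 was listed at 0 on day 0, had 109 and 49.5 CPM on day 4 (5 and 2 reads), and had 294 CPM in the first day 8 library (12 reads) but a listed 0 in the second. At day 8 its replicates thus lay further apart than the days. The circle of exon 2 alone was listed at 0 on days 0 and 4. It had 49.0 and 71.1 CPM on day 8, on 2 and 3 reads, next to the lowest value that the table can hold. Since it entered the table only through day 8, that selection fixed the direction of its course, and nothing is read from it.

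Zbtb38 circles went the other way, with their highest level before induction. The circle of exons 3 to 5 had 1439 and 1550 CPM on day 0 (62 and 64 reads), 43.7 and 124 CPM on day 4 (2 and 5 reads), and 343 and 521 CPM on day 8 (14 and 22 reads). The 3 days did not overlap, with day 4 lowest and day 8 between. By mean CPM it stood 98th among all circRNAs on day 0, 2176th on day 4 and 475th on day 8. Its log2 difference was -3.62 (SE 0.41) for day 4 minus day 0 and -1.62 (SE 0.41) for day 8 minus day 0. Day 8 minus day 4 gave 2.00 (SE 0.41), a difference that rests on a day 4 level of 7 reads over both libraries.

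The circle of Zbtb38 exons 3 to 4 was the smaller of the pair throughout. It had 186 and 339 CPM on day 0 (8 and 14 reads), stood at 0 in each day 4 library, and had a listed 0 and 47.4 CPM on day 8 (2 reads in the second library). Both day 0 libraries lay above all 4 later ones. This circle entered the table only through day 0, a selection that favoured that order, so nothing is read from it. One further circRNA opens upstream of the window and closes at the same exon 5 end (96618629 to 96652992, minus strand), so the rule leaves it out. Its span of 34364 bp matches no pair of annotated exon ends of Zbtb38-212. It had 209 and 72.6 CPM on day 0 (9 and 3 reads) and was listed at 0 in all 4 later libraries. Like the circle of exons 3 to 4, it entered the table only through day 0, and nothing is read from its course.

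**Figure D2:**
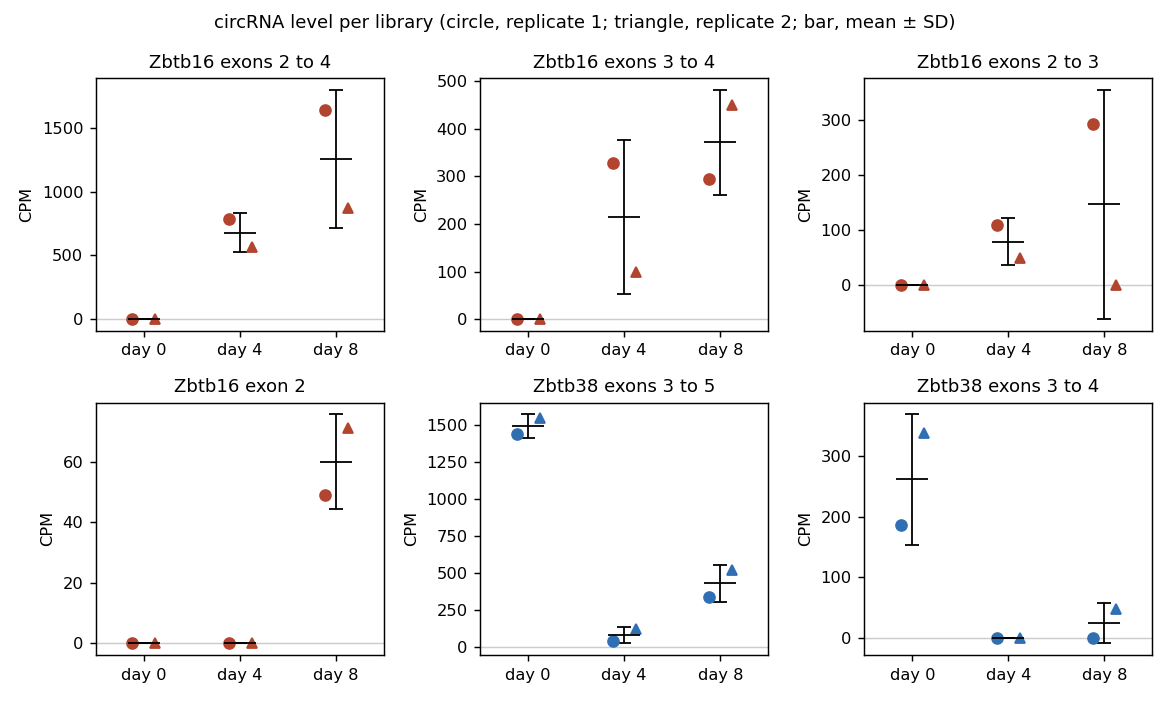
CPM of each of the 6 circRNAs (vertical axes, each with its own scale) by culture day (horizontal axes), with circles for replicate 1, triangles for replicate 2, and bars for the mean ± SD of 2 libraries; an SD bar that reaches below 0 belongs to a day with 1 library at 0. The 4 Zbtb16 panels start at 0 on day 0, and the 2 Zbtb38 panels have their highest points there.

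Summed over its circles, Zbtb16 was listed at 0 on day 0, had 1224 and 718 CPM on day 4 and 2278 and 1398 CPM on day 8, or 971 ± 358 and 1838 ± 623 CPM (mean ± SD, n = 2 libraries each). The days did not overlap. Zbtb38 had 1624 and 1889 CPM on day 0, 43.7 and 124 CPM on day 4 and 343 and 569 CPM on day 8, or 1756 ± 187, 83.8 ± 56.6 and 456 ± 159 CPM. Its days did not overlap either. The log2 difference of the sums for day 8 minus day 4 was 0.94 (SE 0.42) for Zbtb16 and 2.06 (SE 0.43) for Zbtb38, so the means of both hosts were higher on day 8 than on day 4. The value for Zbtb16 was 0.53 without day 4 replicate 2 and 0.60 without day 8 replicate 1. For Zbtb38 it was -3.85 (SE 0.43) for day 4 minus day 0 and -1.79 (SE 0.43) for day 8 minus day 0. Days without overlap are weak evidence here, since for 2 libraries against 2 an exact permutation test gives p = 0.333 at best. How many loci of the whole table had such days was not counted. As a separate background, limma called 8.17% of the table between days 4 and 0, 12.4% between days 8 and 0 and 9.49% between days 8 and 4, at an adjusted p under 0.05. Since the hosts were proposed from the same contrasts, nothing is read from the members' standing against these shares.

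The balance between the hosts turned over between day 0 and day 4. The choice of the hosts by opposite changes between these days fixed this turn, so nothing is read from it. Zbtb16 held 0 of the 70 and 78 reads of both hosts on day 0, but 96.6% and 85.3% of them on day 4 and 86.9% and 71.1% on day 8. The ratio of Zbtb16 to Zbtb38 was 28.0 and 5.80 on day 4 and 6.64 and 2.46 on day 8, so the days overlapped in this measure. On each of the later days the library with more Zbtb16 had less Zbtb38. On day 4 this rests on 2 and 5 Zbtb38 reads, and with 2 libraries a day nothing is read from it.

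Within Zbtb16 the circle of exons 2 to 4 held most of the reads in all 4 later libraries. Its share was 64.3% (50.4% to 76.6%) and 79.3% (60.3% to 92.0%) of the host's reads on day 4, and 72.0% (61.8% to 80.9%) and 62.7% (49.1% to 75.0%) on day 8 (exact Clopper-Pearson 95% intervals, for counting error only). The intervals of all 4 libraries overlapped. The circle of exons 3 to 4 held 26.8% and 13.8% on day 4 and 12.9% and 32.2% on day 8, again with no order between the days. The circle of exons 2 to 3 held 8.93% (2.96% to 19.6%) and 6.90% (0.846% to 22.8%) on day 4, and 12.9% (6.85% to 21.5%) and 0% (0% to 6.06%) on day 8, where the intervals of the 2 replicates did not overlap. Exon 2 alone held 0% (0% to 6.38%) and 0% (0% to 11.9%) on day 4, and 2.15% (0.262% to 7.55%) and 5.08% (1.06% to 14.1%) on day 8. With 2 libraries against 2, an exact permutation test could not go below p = 0.333. Over all libraries, 78.9% of the 237 Zbtb16 reads opened at exon 2 and 89.9% closed at exon 4.

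Within Zbtb38 the circle of exons 3 to 5 was the main one in every library. It held 88.6% (78.7% to 94.9%) and 82.1% (71.7% to 89.8%) of the host's reads on day 0. At day 4 it held all 2 and all 5 reads, too few to tell its share from that of day 0. At day 8 it held all 14 reads (76.8% to 100%) of the first library and 91.7% (73.0% to 99.0%) of the 24 reads of the second. These intervals overlap with those of day 0.

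**Figure D3:**
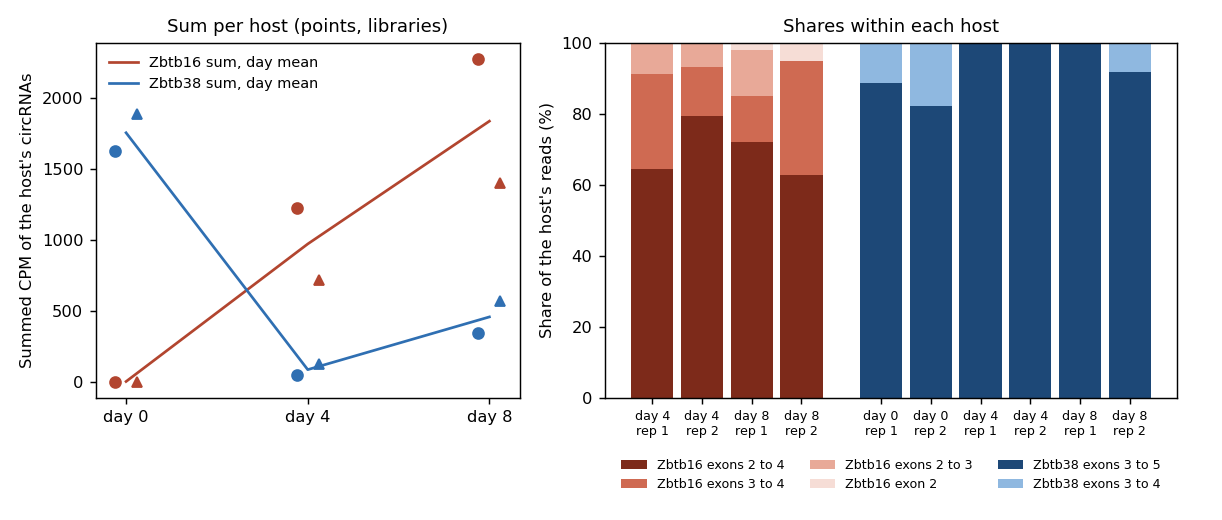
Left, summed CPM of the circRNAs of each host by culture day, with circles for replicate 1, triangles for replicate 2 and lines through the day means: Zbtb16 lies at 0 on day 0 and above Zbtb38 on days 4 and 8. Right, the share of each host's reads held by each of its circRNAs, in percent, per library (Zbtb16 has no bars on day 0, where it had no reads), with the circle of exons 2 to 4 the largest part of every Zbtb16 bar and that of exons 3 to 5 the largest part of every Zbtb38 bar.

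Across the table, 98 circRNAs (2.53%) were listed at 0 in each library of day 0 and above 0 in all 4 later ones. The Zbtb16 circles of exons 2 to 4 and of exons 3 to 4 were among them, and the first of these had the third-highest day 8 mean of the 98. Of the 98, 10 had a mean of at least 10 reads. The order seen in Zbtb38, with every day 0 library above every day 8 library and these above every day 4 library, was found in 61 circRNAs (1.58%), and 32 of these, the Zbtb38 circle of exons 3 to 5 included, were above 0 in all 6 libraries.

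The loci with the most similar courses were sought among 841 with a mean of at least 10 reads, by Pearson's r of log2(CPM + 43.7) over the 6 libraries. Such an r over 3 days with 2 libraries each is a description. For Zbtb16 they were a circRNA of Cth, an enzyme of cysteine synthesis, on chromosome 3 (157581390 to 157584000, r = 0.9965), a locus of Csgalnact1, an enzyme of chondroitin sulfate synthesis, on chromosome 8 (71169698 to 71243393, r = 0.9876), and a circRNA of Tbc1d32 on chromosome 10 (55843317 to 55871659, r = 0.9873). The Cth circRNA had 92.8 and 72.6 CPM on day 0, 372 and 322 CPM on day 4, and 465 and 355 CPM on day 8. That of Tbc1d32 was listed at 0 on day 0, like Zbtb16, with 262 and 322 CPM on day 4 and 441 and 450 CPM on day 8. For Zbtb38 they were a locus of Rftn1, a lipid raft protein, on chromosome 17 (50176266 to 50194952, r = 0.9969), a circRNA on chromosome 12 whose host was not named (83441649 to 83443486, r = 0.9915), and a locus of Wwc2 on chromosome 8 (48984790 to 49006052, r = 0.9878). The Rftn1 locus had 2738 and 3341 CPM on day 0, 306 and 594 CPM on day 4, and 1029 and 1255 CPM on day 8. All of these lie on the minus strand but the one on chromosome 12. Between Zbtb16 and Zbtb38 themselves r was -0.7510, a negative value that their choice by opposite changes favoured.

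Few circRNAs could be named for other genes of the BTB zinc finger family, by a spacing rule that named 67.9% of the table. Of 28 listed genes, 3 had 1 circRNA each whose ends fitted their exon spacing, and limma called none of the 3 between any days at an adjusted p under 0.05. At an unadjusted p under 0.05 there were 2 between days 4 and 0, 1 between days 8 and 0 and 1 between days 8 and 4, where 22%, 25.4% and 21.9% of the whole table passed. The circRNA of Zbtb20, a repressor known from liver and brain, had 139 and 169 CPM on day 0, 328 and 718 CPM on day 4, and 514 and 474 CPM on day 8. All 4 later libraries lay above both day 0 libraries (log2 difference 1.53, SE 0.41, limma adjusted p = 0.0750 for day 8 versus day 0). The circRNAs of Zbtb11 and Zbtb44 had at most 6 reads in any library and were listed at 0 in both day 8 libraries. Both entered the table only through day 4. That selection favoured a high day 4, so nothing is read from the unadjusted counts that involve day 4. The median log2 difference of the 3 was 0.98 for day 4 versus day 0, -0.53 for day 8 versus day 0 and -1.51 for day 8 versus day 4. Over the whole table it was 0.00, 0.05 and 0.06. Each median of the 3 is the value of Zbtb44, which had at most 4 reads in a library, so it does not describe the family.

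Of 15 genes that glucocorticoids induce or act through, 2 had a circRNA that exon spacing could name. That of Fkbp5, a co-chaperone of the glucocorticoid receptor and a standard reporter of its activity, had a listed 0 and 72.6 CPM on day 0, 87.5 and 198 CPM on day 4, and 343 and 142 CPM on day 8. Both day 4 libraries and both day 8 libraries lay above day 0, on 3 reads at most on day 0, and it was not called (limma adjusted p = 0.442 for day 4 versus day 0 and 0.209 for day 8 versus day 0). That of Nr3c1, the glucocorticoid receptor itself, was listed at 0 on day 0, had 43.7 and 124 CPM on day 4 (2 and 5 reads) and was listed at 0 on day 8. It was called higher for day 4 versus day 0 (limma adjusted p = 0.0311), where 3.95% of the table was called higher, and lower for day 8 versus day 4 (0.0270), where 3.44% was called lower. This circRNA entered the table only through day 4, so that selection fixed the direction of both calls, and nothing is read from them. The first call was lost in 6 of 12 alternatives, among them leaving out either day 0 library (0.225 without replicate 1, 0.207 without replicate 2) or either day 8 library (0.132 and 0.135). The second was lost without the same libraries (0.117, 0.118, 0.242 and 0.239).

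**Figure D4:**
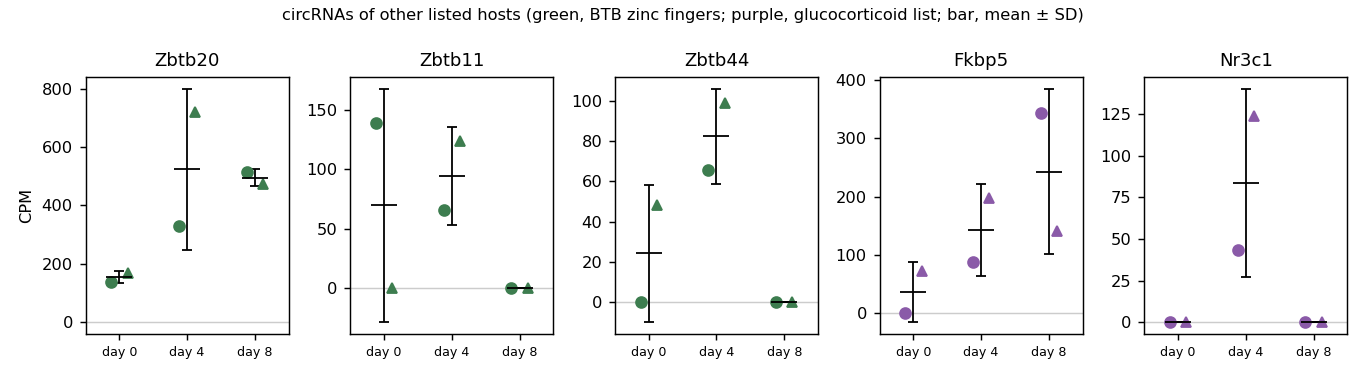
CPM (vertical axes, each with its own scale) by culture day of the 5 circRNAs of other listed hosts, with circles for replicate 1, triangles for replicate 2 and bars for the mean ± SD of 2 libraries; green panels are BTB zinc finger genes and purple panels are the glucocorticoid list. Zbtb20 and Fkbp5 have higher means on days 4 and 8 than on day 0, and the other 3 are at or near 0 on day 8.

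Markers of the cell types could be followed only where their genes gave circRNAs that exon spacing could name. Of 6 adipocyte genes only Pparg, the main regulator of fat cell formation, had any, and its 3 circRNAs summed to 139 and 72.6 CPM on day 0, 175 and 570 CPM on day 4, and 686 and 569 CPM on day 8. One of the 3 was called higher for day 8 versus day 0 (limma adjusted p = 0.0198), where 7.52% of the table was called higher, but not when day 0 replicate 1 (0.0503) or either library of day 8 was left out (0.128 and 0.135). Of 6 brown adipocyte genes only Ebf2, a brown fat lineage factor, had any, with 2 circRNAs that summed to at most 142 CPM in a library. The others, Ucp1 among them, had none that could be named, which does not tell whether the genes were expressed. Of 3 macrophage genes Adgre1 had 2 circRNAs, listed at 0 on day 0, with 131 and 0 CPM in sum on day 4 and 343 and 379 CPM on day 8. Like the Zbtb16 sum it was 0 on day 0 and highest on day 8. It was also 0 in the second day 4 library, where the Zbtb16 sum had 718 CPM. The Adgre1 sums of day 8 rest on 14 and 16 reads, too close to order the libraries. They are therefore not compared with the order of the Zbtb16 sums (2278 and 1398 CPM). One of the 2 Adgre1 circRNAs was called higher on day 8 than on day 0 (limma adjusted p = 0.00918) and than on day 4 (0.0104, where 6.05% of the table was called higher). The other was not called (0.141 and 0.468). The part of macrophages in the Zbtb16 levels was not tested. The called circRNA was listed at 0 on days 0 and 4 and entered the table only through day 8. That selection fixed the direction of both its calls, and nothing is read from them. Each of these calls was lost when either day 0 library or either day 4 library was left out, with adjusted p of 0.0530 to 0.101 for the first and 0.0638 to 0.117 for the second. No circRNA could be named for the 3 endothelial or the 3 muscle genes.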

How the data were processed

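Back-splice reads of 6 libraries (days 0, 4 and 8, 2 each) were analysed from 1 table. The authors deposited CPM values that sum to 1000000 per library. FastQC 0.11.9, HISAT2 2.2.0 and mm9 are named in the submitters' processing notes; the sources used here do not name the circRNA caller. Starts count from 0 and were raised by 1. Members, lists and tests were chosen with earlier results of these data known.

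All 3869 rows were fitted with limma 3.58.1 (R 4.3.3, mean-variance trend, 3 days in 1 fit) on log2(CPM + 43.7) after TMM scaling, where 43.7 CPM is the smallest value above 0, with Benjamini-Hochberg adjustment over all rows. Such differences understate changes near 43.7 CPM. The inferred reads start at 2, so no count model was used. The fit was run on simulated data, with known changes placed only in rows with a mean of at least 10 reads. The selection of rows by both replicates of some day was not simulated. The simulation therefore says nothing on rows with few reads that entered through a single day. Named members were to have a mean of at least 10 reads or be among the 3 most abundant of their locus; all 6 are given. The 3 most similar of the 841 loci (overlapping circRNAs of 1 strand) were named.

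Hosts were named by exon spacing in GENCODE M21, a rule set after the table was seen: the span had to fit 1 gene only within 3000000 bp, and its shift to recur for at least 2 circRNAs of other genes. It named 2626 circRNAs (67.9%). No coordinate was converted.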

Additional observations from a re-analysis of the deposited data

How the results depend on the processing

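Few reads limit these results, since a listed 0 can hide 1 read and the day 4 values of Zbtb38 and of the minor Zbtb16 circles rest on at most 15 reads. Without 1 library the Zbtb16 sum differed from day 0 by 695 to 1266 CPM on day 4 and by 1449 to 2353 CPM on day 8, against 980 and 1901 CPM with all 6 (TMM-scaled). Its log2 difference of day 8 minus day 4 ranged over 0.53 to 1.36 when 1 library was left out. Without the most abundant circle, Zbtb16 differed from day 0 by 298 CPM on day 4 and 599 CPM on day 8, and Zbtb38 had log2 differences of -2.72 (day 4 minus day 0), -2.18 (day 8 minus day 0) and 0.54 (day 8 minus day 4). For the full Zbtb38 sum, a pseudocount of 1 CPM gave log2 differences of -4.50 (day 4 minus day 0) and 2.62 (day 8 minus day 4). One of 4 times the smallest value gave -2.87 and 1.32, as the scale itself brings about.

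Over the whole table, 316, 480 and 367 circRNAs were called for day 4 versus day 0, day 8 versus day 0 and day 8 versus day 4. Among the 1368 that reached 10 reads in 2 or more libraries the counts were 50, 89 and 14, with fewer rows tested, and 36, 536 and 340 were called when only the 4 libraries of the days compared were fitted; the cause was not tested. Deviations of same-numbered libraries from their day means showed no correlation over all rows (r of -0.0150 to -0.00586). Most rows have few reads, whose counting error could hide a shared effect, so pairing is not excluded. A replicate block gave 304, 453 and 351 calls. The planned count models were not run, because the table holds CPM without values of 1 read.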
